A study of Mus musculus with 2 samples.

Results

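The genes described here build and supply the motile cilium, and they were taken by symbol: every gene of the count tables named Dnah, Dnaic, Cfap, Rsph or Ift followed by a number. This rule found 74 of the 32285 genes measured, with 198420 transcripts in all, and 69 of them had at least 50 transcripts over both libraries and are described. They are 16 dynein heavy and intermediate chains, 31 cilia and flagella associated proteins, 7 radial spoke proteins, 14 intraflagellar transport proteins and 1 antisense gene, Dnah2os, which the rule took by its name. The 5 genes below the limit were Cfap99, Dnah17, Cfap97d1, Ift88os and Rsph6a. Just inside it stood Dnah8 with 107 and Cfap73 with 87 transcripts, and just outside it Cfap99 with 41 and Dnah17 with 12.

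Transcripts of single brain cells were counted by droplet-based single-cell RNA sequencing in female mice aged 11 to 12 months that carried either human APOE4 on both alleles (E4/E4) or human APOE3 on both alleles (E3/E3). Right hemispheres without brainstem and cerebellum were pooled from 3 mice per genotype, digested with heated enzymes, and run as 1 library per genotype, without a wild-type library. Because each genotype has 1 library from a pool, no test of genotype was possible, and the 95% intervals given below cover counting error only. Each transcript carries a unique molecular identifier (UMI), and levels are counts per 1000000 UMIs of a cell class (CPM). The kit reads the 3′ end of a transcript, so a level counts molecules and was not divided by gene length.

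The E4 library held 71625170 UMIs in 13802 barcodes with a median of 4085, and the E3 library held 56415229 UMIs in 11485 barcodes with a median of 3784. After filtering, 13528 E4 and 11288 E3 barcodes remained, and 46 barcode sequences occurred in both libraries. Cells were clustered without any of the 74 genes or of the other cilia genes listed for comparison. Marker genes, such as Foxj1 for ependymal cells, were not held out of this step. The ependymal class was thus not built independently of genes expressed along with motile cilia. Clusters were named from these marker genes. Names therefore mean that a cluster is like that cell type. The ependymal cluster passed all 8 of its markers, among them Tmem212 and Ccdc153, and held 187 E4 and 189 E3 cells, and the choroid plexus cluster held 420 E4 and 409 E3 cells. In all, 11 classes were named. A cluster of 1726 E4 and 1465 E3 cells that passed every astrocyte marker stayed unnamed because Crym, listed as a tanycyte marker, was among its leading genes. Other clusters stayed unnamed too, among them those led by Gpr17 and by Higd1b. All unnamed clusters together held 3054 E4 cells (22.6%) and 2699 E3 cells (23.9%). They held 13.73% of the UMIs of the 69 genes in E4 and 12.96% in E3. A further 2 small mixed clusters of 63 E4 and 46 E3 cells were left out as doublets.

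A motile cilium beats because dynein motors slide the microtubules of its axoneme against each other. Outer and inner dynein arms sit on the microtubules, radial spokes and the central pair apparatus regulate them, and many Cfap proteins line, tether or crosslink these parts. Intraflagellar transport (IFT) carries building blocks along the axoneme and also serves the immotile primary cilium that many cell types have. Ependymal cells line the ventricles of the brain with tufts of motile cilia, and choroid plexus epithelial cells, which secrete cerebrospinal fluid, also carry tufts of cilia.

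Ependymal cells had the highest summed level of the genes in both libraries. The 69 genes together reached 13409 CPM (95% Poisson interval 13262 to 13557) in E4 and 13352 CPM in E3 ependymal cells. Choroid plexus cells followed with 2405 CPM in E4 and 2384 CPM in E3, and astrocytes had 981 CPM in E4 and 998 CPM in E3. Microglia, which build no motile cilium, had 484 CPM in E4 and 480 CPM in E3, and the Ift genes gave 258 CPM of this in E4 and 257 CPM in E3.

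In choroid plexus cells and microglia the dynein chains had the lowest sum of the 4 families, and the Ift genes were the most even across the 3 classes. Dynein chains summed to 2798 CPM in E4 and 2742 CPM in E3 ependymal cells, to 102 CPM in E4 and 93.0 CPM in E3 choroid plexus cells, and to 7.76 CPM in E4 and 8.48 CPM in E3 microglia. Radial spoke genes summed to 2054 CPM in E4 and 2172 CPM in E3 ependymal cells, to 488 CPM in E4 and 491 CPM in E3 choroid plexus cells, and to 12.2 CPM in E4 and 10.5 CPM in E3 microglia. The choroid plexus level of the spokes was thus several times that of the dyneins, although the ependymal level of the spokes was lower. Ift genes had 2508 CPM in E4 and 2570 CPM in E3 ependymal cells, 831 CPM in E4 and 821 CPM in E3 choroid plexus cells, and 258 CPM in E4 and 257 CPM in E3 microglia. Cfap genes lay between, with 6048 CPM in E4 and 5867 CPM in E3 ependymal cells and 206 CPM in E4 and 205 CPM in E3 microglia.

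**Figure D1:**
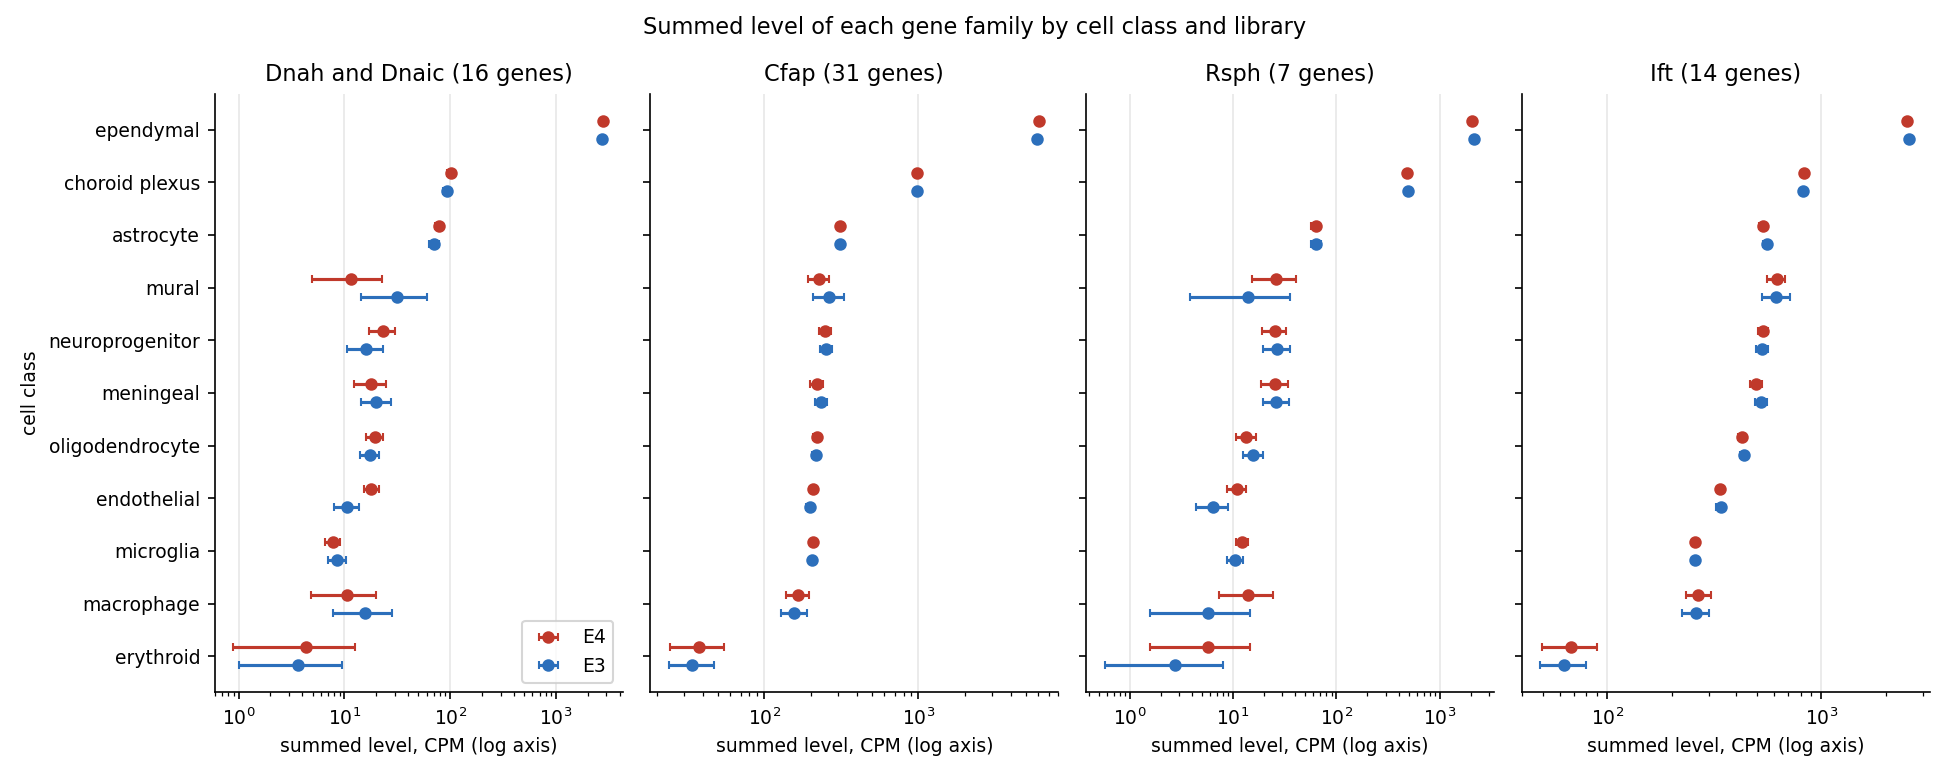
Summed level in CPM on a log axis for each gene family (panels) in each of the 11 named cell classes (rows), with E4 above E3 and bars for the 95% Poisson interval. Ependymal cells stand highest in every panel, and the gap to the other classes is widest for the dynein chains (2798 CPM in E4 and 2742 CPM in E3 ependymal cells) and narrowest for the Ift genes.

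Gene by gene, 67 of the 69 had their highest level, as the mean of both libraries, in ependymal cells, where 17.2% of all 16376 genes with at least 50 UMIs did. In 32 of the 69 the ependymal level was at least 10 times that of the next class, against 2.39% of all genes. The median ratio to the next class was 19.2 for the dynein chains, 11.1 for Cfap, 5.28 for Rsph and 2.49 for Ift genes, and 0.412 over all genes. Dnah12, an inner arm heavy chain, had the largest ratio at 551, and Cfap97 the smallest of the 67 at 1.08.

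**Figure D2:**
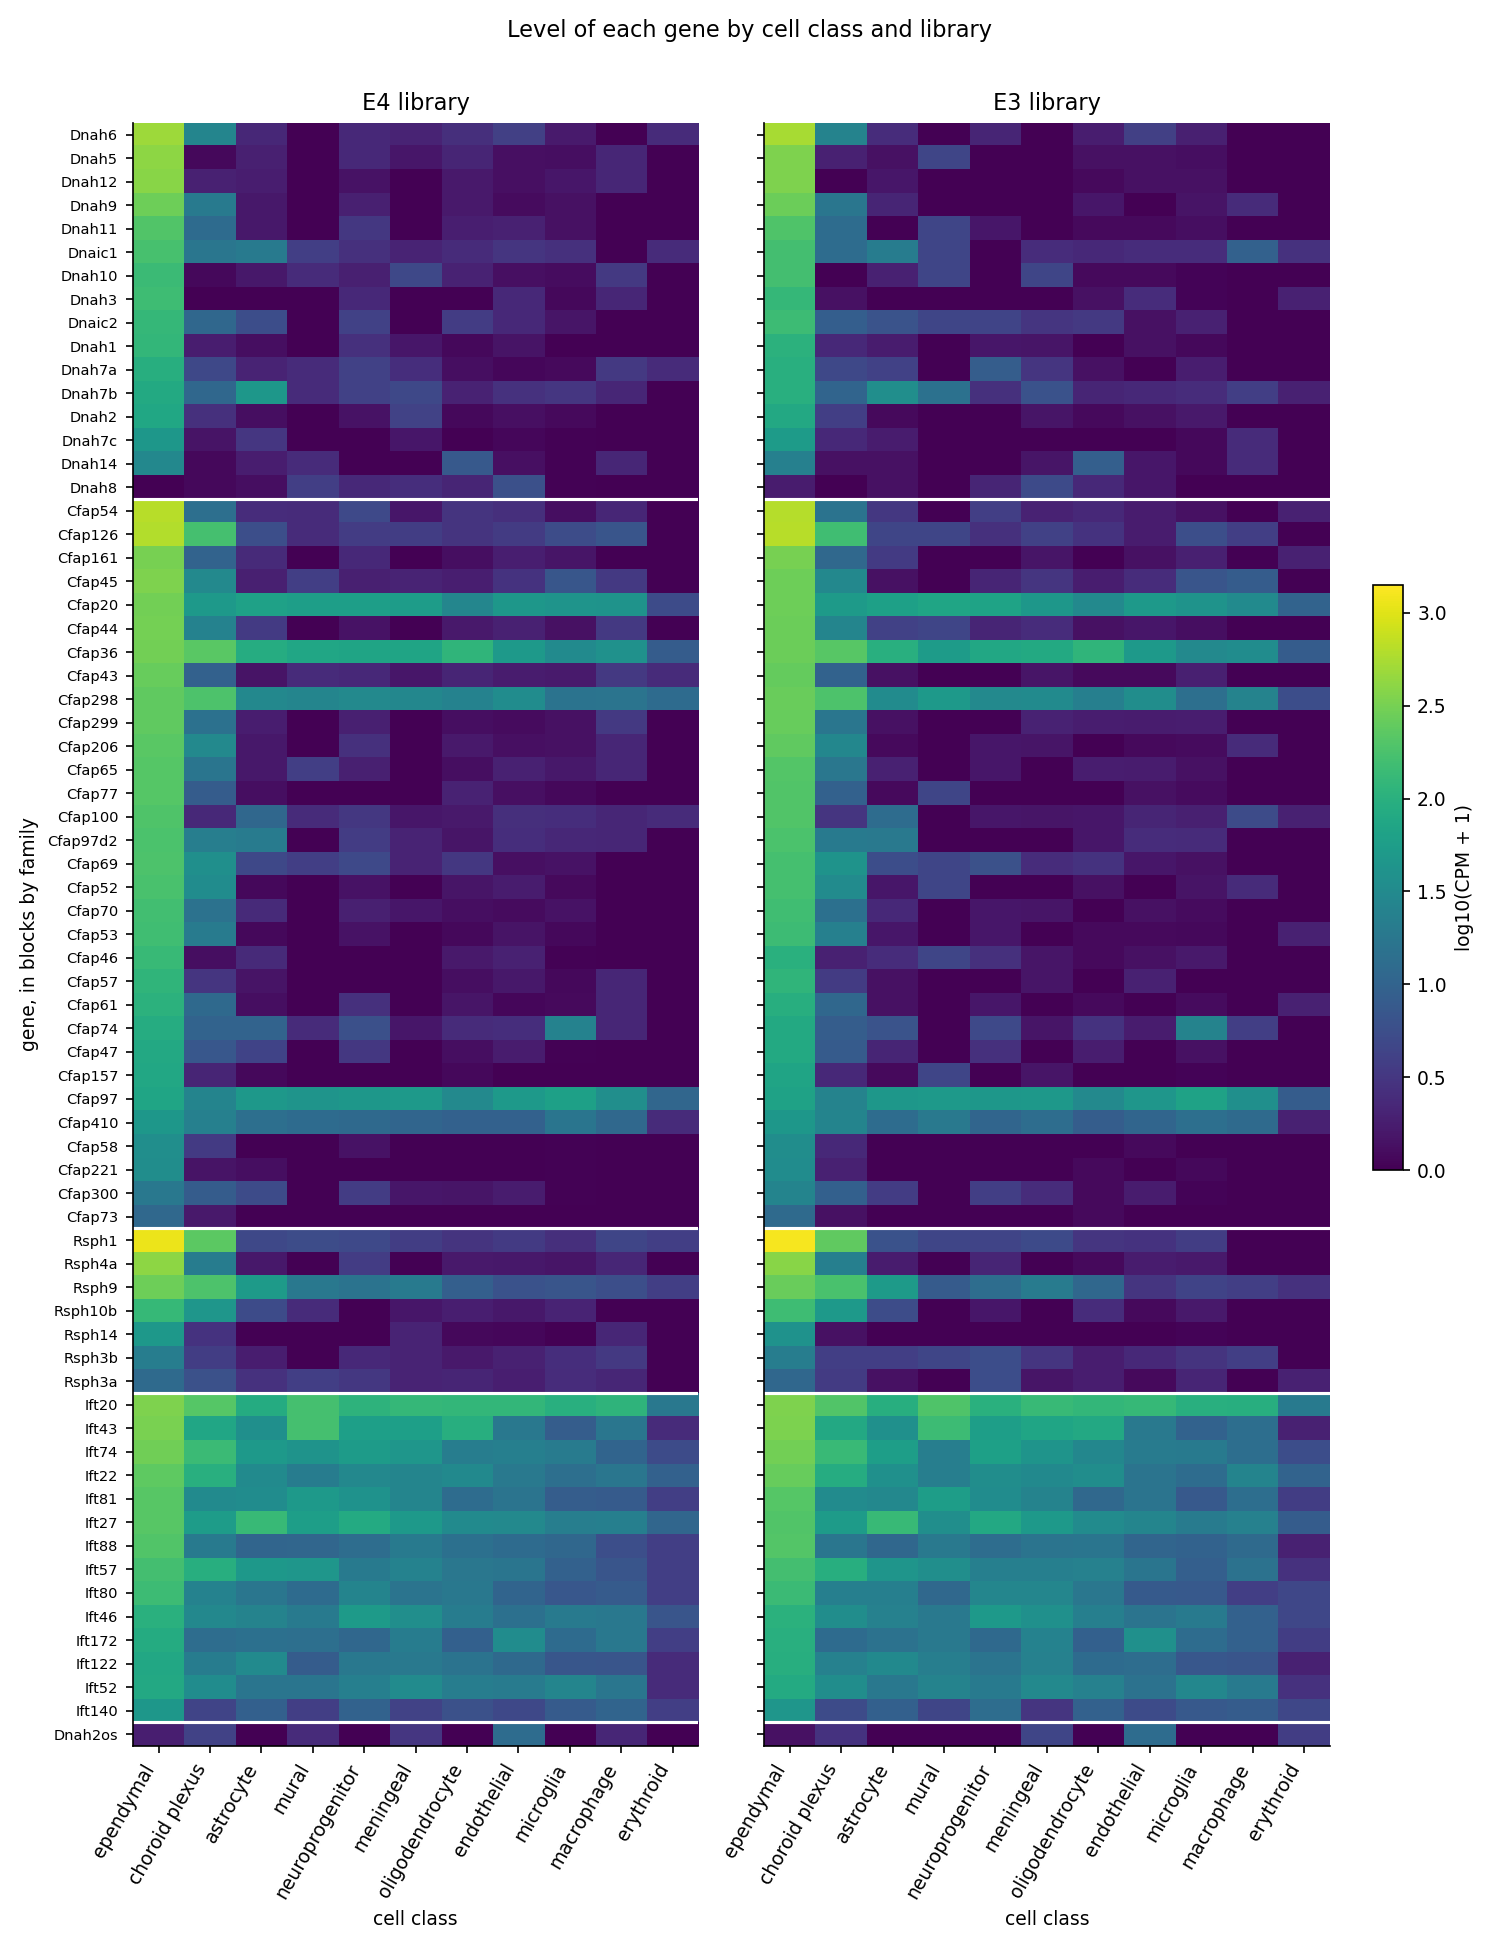
Level of each of the 69 genes (rows, in blocks by family with the highest ependymal level on top) in the 11 named cell classes (columns), as log10(CPM + 1), with the E4 library on the left and the E3 library on the right. The dynein block is mostly dark outside the ependymal column, with exceptions such as a few genes in choroid plexus cells and Dnah7b in astrocytes (46.1 CPM in E4 and 35.4 CPM in E3), while the Ift block is lit in nearly all columns.

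At equal depth the classes could be compared cell by cell. Cells were thinned to 1000 UMIs, which left out shallower cells: 15 E4 and 11 E3 ependymal cells, 17 E4 and 16 E3 choroid plexus cells, 30 E4 and 65 E3 microglia, and, the largest loss of these classes, 626 of 2339 E4 and 639 of 2017 E3 astrocytes. A UMI of the Dnah, Dnaic, Cfap or Rsph genes was then found in 99.4% of E4 and 100% of E3 ependymal cells, in 78.7% of E4 and 76.6% of E3 choroid plexus cells, and in 33.5% of E4 and 34.7% of E3 astrocytes. In microglia the share was 19.1% in E4 and 20.5% in E3, most of it from Cfap genes, and dynein chains alone were found in 0.720% of E4 and 0.774% of E3 microglia. Among ependymal cells, Rsph genes were found in 77.3% of E4 (70.3 to 83.4%) and 88.8% of E3 cells (83.2 to 93.0%), and dynein chains in 88.4% of E4 and 93.3% of E3 cells. Free RNA in the droplets also gives such UMIs. Median depths before thinning were 8764 UMIs in E4 and 10697 in E3 ependymal cells, and 4374 UMIs in E4 and 3755 in E3 microglia. Unthinned, the share was 100% of ependymal cells in both libraries, and 59.6% of E4 and 54.3% of E3 microglia. A median ependymal cell carried UMIs of 44 of the 69 genes in E4 and of 46 in E3, and a median choroid plexus cell of 15 in E4 and of 14 in E3.

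**Figure D3:**
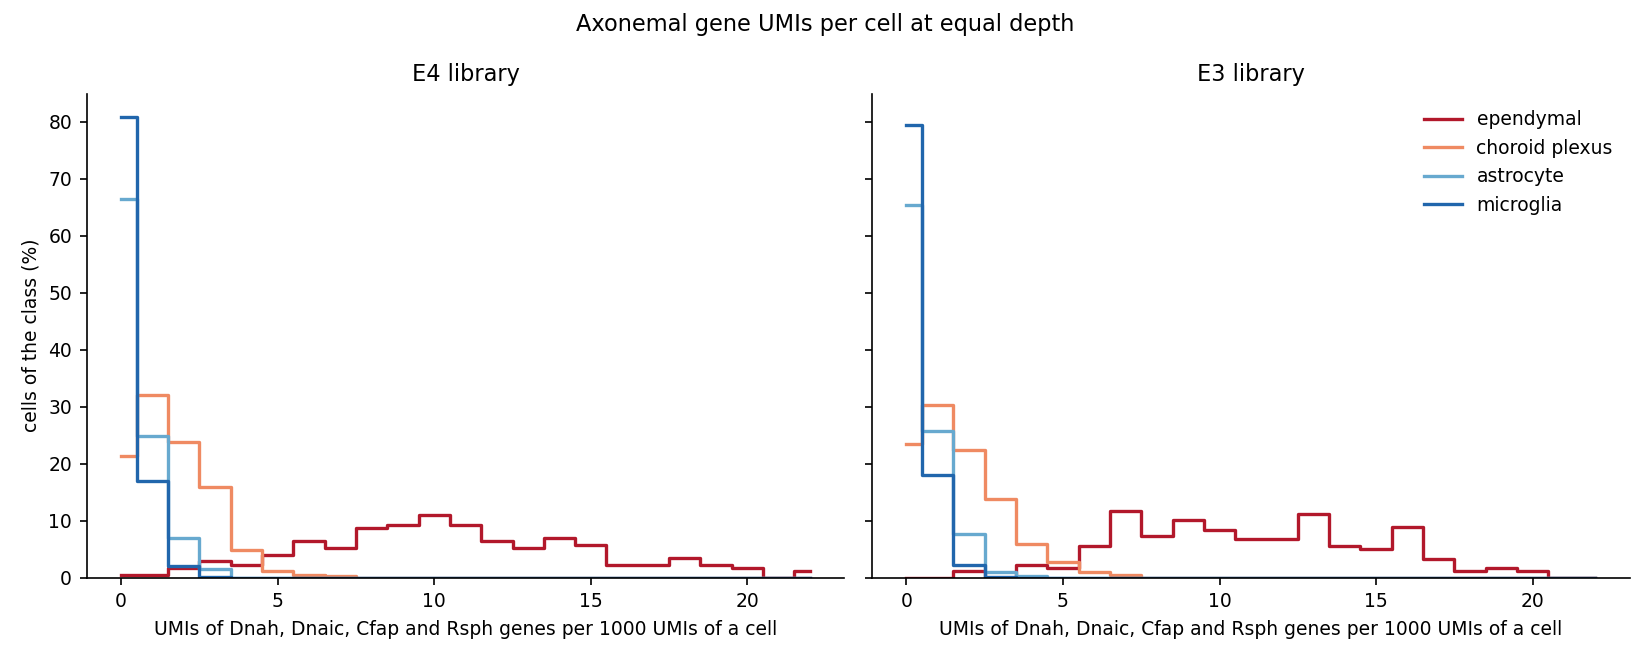
Share of cells (y axis, %) by the number of UMIs of Dnah, Dnaic, Cfap and Rsph genes per 1000 UMIs of a cell (x axis), for 4 classes, with the E4 library on the left and the E3 library on the right. Ependymal cells form a broad hump with a median of 10 in E4 and 11 in E3, choroid plexus cells have a median of 1 in both libraries, and astrocytes and microglia are mostly at 0.

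Regulatory factor X (RFX) proteins switch on many cilia genes by binding the X-box, an inverted repeat. Promoter windows of 300 bases, 250 before and 50 after the start of the gene, were taken from RefSeq on GRCm38.p6 and matched 58 of the 74 genes by symbol. They were searched for GTNNCC followed after 0 to 3 bases by GGNNAC, a pattern that reads the same on both strands. It stood in the windows of 9 of the 58 genes (15.5%), and in those of 4.38% of all 27025 genes of the table. The forkhead core GTAAACA, on either strand, stood in 5.17% of the 58 genes and in 4.05% of all, and no match of either pattern overlapped one of the other in these genes. The windows below are examples from 3 families and not all of the matches. Of the genes shown, Rsph9, Cfap298 and Ift57 had over 50% of their ependymal level in choroid plexus cells, and Cfap126 and Cfap206 had less. Capitals mark the matched pair, and each sequence runs 5′ to 3′ on the strand of the gene.
Rsph9, chr17:46144173-46144226, minus strand: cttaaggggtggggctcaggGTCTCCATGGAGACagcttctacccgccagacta
Cfap126, chr1:171122943-171122996, plus strand: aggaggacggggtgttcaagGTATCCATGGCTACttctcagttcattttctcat
Cfap298, chr16:90934884-90934938, minus strand: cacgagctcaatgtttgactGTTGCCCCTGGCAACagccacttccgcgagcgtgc
Cfap206, chr4:34730196-34730249, minus strand: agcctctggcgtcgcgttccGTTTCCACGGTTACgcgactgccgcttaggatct
Ift57, chr16:49699187-49699240, plus strand: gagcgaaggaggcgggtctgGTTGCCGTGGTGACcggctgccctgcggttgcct

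Other matches were in Cfap43, Cfap58, Cfap77 and Ift22, and Cfap298, Ift22 and Ift57 each held a second one. The matched pairs began 6 bases before the start in Rsph9, 82 in Cfap126, 69 in Cfap298, 23 in Cfap206 and 87 in Ift57. Of the genes not shown, Cfap43, Cfap58 and Cfap77 were low in E4 choroid plexus cells beside E4 ependymal cells. Cfap43 had 8.52 against 264 CPM, Cfap58 2.41 against 35.3 CPM and Cfap77 7.23 against 206 CPM. Ift22 was not, with 96.6 against 234 CPM. Its choroid plexus share was 41.2% of the ependymal level in E4 and 33.3% in E3. A link between the matched pair and the choroid plexus level was not tested.

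The dynein heavy chains of the outer arm were all highest in ependymal cells, apart from Dnah8. Dnah5 had 412 CPM in E4 (981 UMIs) and 349 CPM in E3 (953 UMIs) ependymal cells, Dnah9 had 287 CPM in E4 and 273 CPM in E3, and Dnah11 had 197 CPM in E4 and 193 CPM in E3. The ratio of E4 to E3 of Dnah5 was 0.24 on the log2 scale (0.11 to 0.37), and the intervals of Dnah9 and Dnah11 held a ratio of 1. Dnah5 was nearly missing from choroid plexus cells, with 1 UMI in E4 and 5 UMIs in E3. Dnah9 had 18.8 CPM in E4 and 16.0 CPM in E3 choroid plexus cells, and Dnah11 had 11.7 CPM in E4 and 12.0 CPM in E3. Dnah5 at 0.161 CPM in E4 and 0.955 CPM in E3 choroid plexus cells was about as low as in microglia, which had 0.326 CPM in E4 and 0.320 CPM in E3. The intermediate chain Dnaic1 had 170 CPM in E4 and 160 CPM in E3 ependymal cells and 16.4 CPM in E4 and 12.0 CPM in E3 choroid plexus cells, and astrocytes had 18.3 CPM in E4 and 19.9 CPM in E3.

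Inner arm heavy chains split in the same way. Dnah6 had 484 CPM in E4 and 547 CPM in E3 ependymal cells (log2 ratio -0.17, -0.29 to -0.06) and 26.0 CPM in E4 and 24.8 CPM in E3 choroid plexus cells. Dnah12 had 389 CPM in E4 and 342 CPM in E3 ependymal cells (log2 ratio 0.19, 0.05 to 0.32), with 6 UMIs in E4 and none in E3 choroid plexus cells, where a count of 0 allows up to 0.573 CPM. In choroid plexus cells Dnah6 stood at 5.38% of its ependymal level in E4 and 4.54% in E3, and Dnah12 at 0.248% in E4 and at no UMI in E3. Dnah10 had 141 CPM in E4 and 162 CPM in E3 ependymal cells, against 1 UMI in E4 and none in E3 choroid plexus cells, and Dnah3 had 148 CPM in E4 and 125 CPM in E3 ependymal cells, against no UMI in E4 and 2 UMIs in E3 choroid plexus cells. Both were as scarce there as Dnah5 and Dnah12. Dnah7a, Dnah7b and Dnah7c are close copies of one another, so reads may have been split between them and their single levels are uncertain. Dnah7b was the 1 heavy chain with a clear level in astrocytes, 46.1 CPM in E4 and 35.4 CPM in E3, against 81.5 CPM in E4 and 96.2 CPM in E3 ependymal cells.

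**Figure D4:**
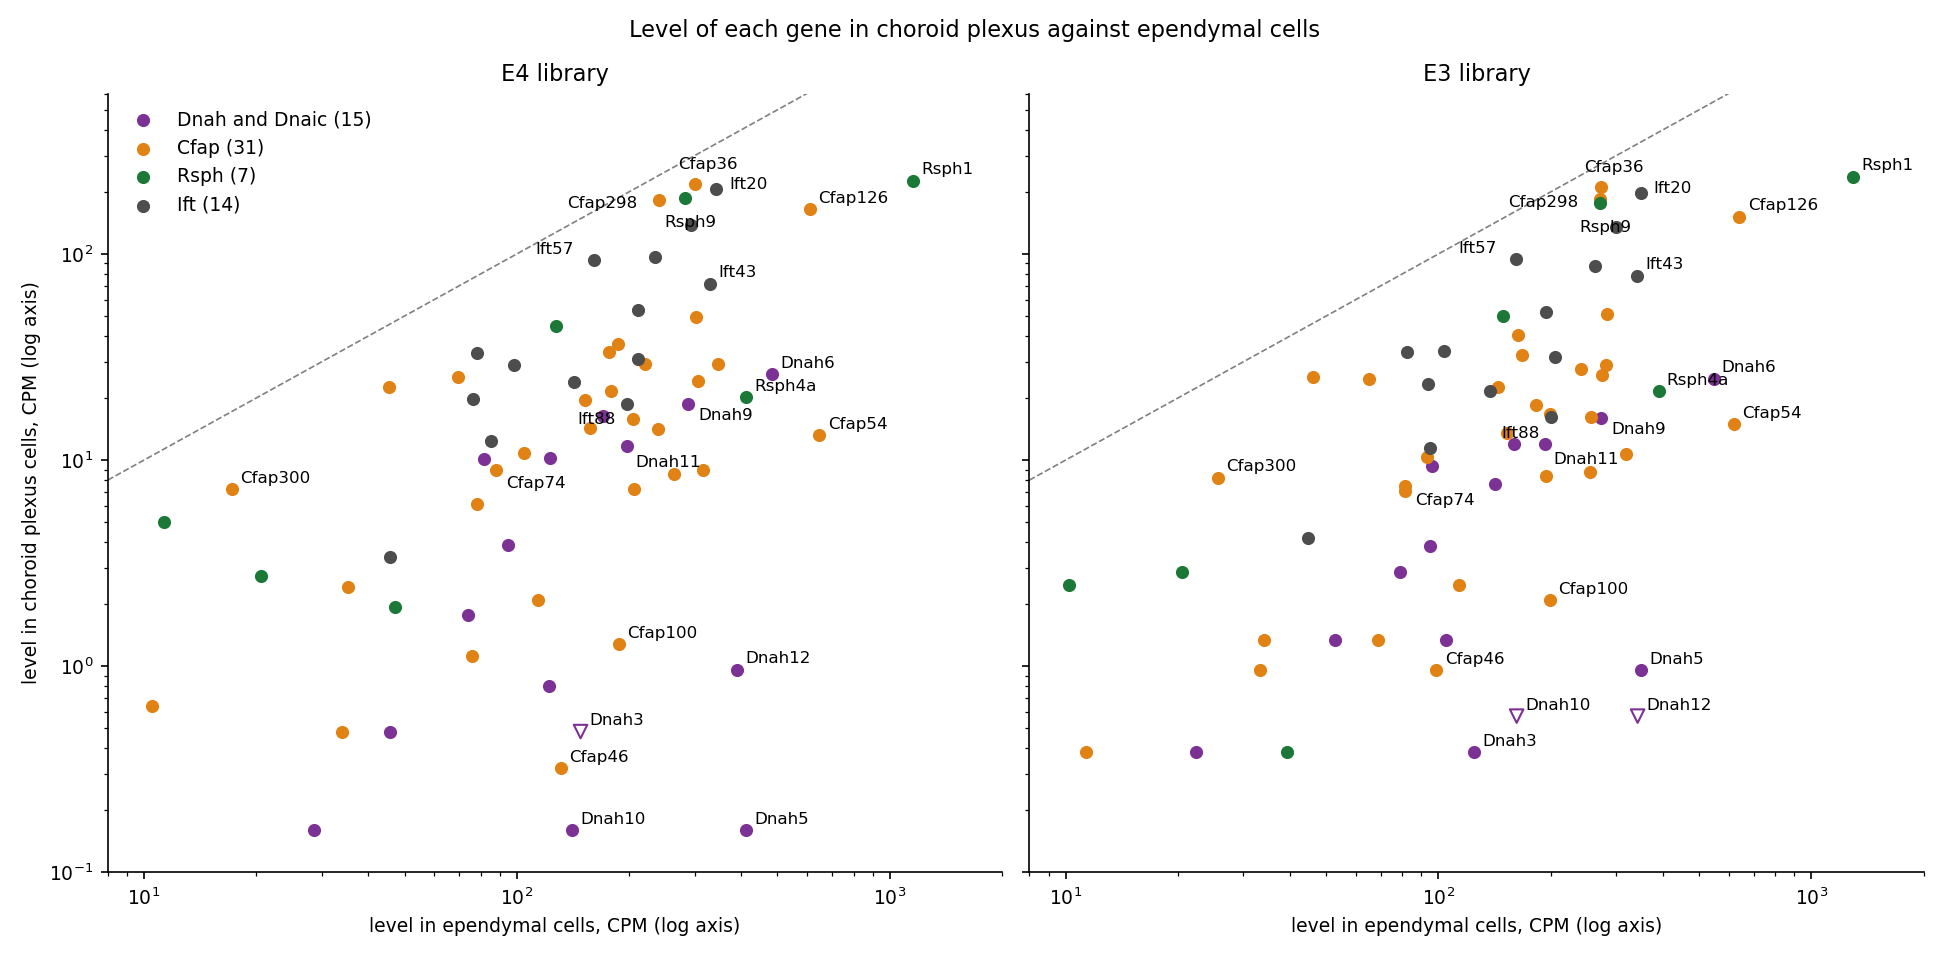
Level in choroid plexus cells (y axis, CPM) against the level in ependymal cells (x axis, CPM), both on log axes, for the 67 genes with at least 20 UMIs in ependymal cells, coloured by family, with the E4 library on the left and the E3 library on the right. Open triangles have no UMI in choroid plexus cells and are drawn at the level of 3 UMIs, and the dashed line marks equal levels. All points lie below the line, from Cfap36 and Cfap298 close to it down to genes such as Dnah10 and Dnah3, with at most 2 UMIs in choroid plexus cells.

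Only 2 of the 69 genes were not highest in ependymal cells. Dnah8, an outer arm heavy chain known from sperm flagella, had no UMI in E4 and 2 UMIs in E3 ependymal cells. In endothelial cells, 40 UMIs in 35 of 1515 E4 cells (4.81 CPM) stood against 3 UMIs in 3 of 1027 E3 cells (0.559 CPM), a log2 ratio of 3.10 (1.45 to 5.44). In meningeal cells, its highest class over both libraries, Dnah8 had 3 UMIs in E4 (1.62 CPM) and 8 UMIs in E3 (4.11 CPM). Dnah2os, antisense to the inner arm gene Dnah2, had 12.1 CPM in both E4 and E3 endothelial cells and 0.840 CPM in E4 and 0.366 CPM in E3 ependymal cells. Dnah2 itself was highest in ependymal cells with 73.9 CPM in E4 and 78.7 CPM in E3. Whether the counting used the strand is not given in the sources used here, so reads of this pair cannot be told apart with certainty.

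Among the Cfap genes all 31 were highest in ependymal cells. Cfap54, a part of the central pair apparatus, had 648 CPM in E4 and 620 CPM in E3. Cfap126, which helps to place basal bodies, had 610 CPM in E4 and 641 CPM in E3. Cfap161, which lies inside the microtubules, had 315 CPM in E4 and 318 CPM in E3. For these 3 the interval of the E4 to E3 ratio held 1. They differed in choroid plexus cells, where Cfap54 had 13.2 CPM in E4 and 14.9 CPM in E3, Cfap126 had 165 CPM in E4 and 151 CPM in E3, and Cfap161 had 9.0 CPM in E4 and 10.7 CPM in E3. Cfap45, another protein inside the microtubules, had 346 CPM in E4 and 281 CPM in E3 ependymal cells (log2 ratio 0.30, 0.16 to 0.45), and Cfap44, which tethers an inner dynein, had 307 CPM in E4 and 274 CPM in E3 (0.16, 0.01 to 0.31). Cfap46, like Cfap54 a central apparatus protein, had the highest ratio of all 67 compared genes, with 131 CPM in E4 and 98.8 CPM in E3 (0.41, 0.17 to 0.65).

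Cfap298, an assembly factor of dynein arms, and Cfap36 had the largest shares of their ependymal level in choroid plexus cells. Cfap298 had 241 CPM in E4 and 270.4 CPM in E3 ependymal cells and 184 CPM in both E4 and E3 choroid plexus cells. Cfap36 had 301 CPM in E4 and 272 CPM in E3 ependymal cells and 219 CPM in E4 and 212 CPM in E3 choroid plexus cells. Cfap206, which anchors a radial spoke, had 221 CPM in E4 and 241 CPM in E3 ependymal cells and 29.3 CPM in E4 and 27.7 CPM in E3 choroid plexus cells.

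Some Cfap genes also had UMIs in cells without motile cilia. Cfap20, which holds the microtubules of a doublet together, had 302 CPM in E4 and 284 CPM in E3 ependymal cells and still 41.1 CPM in E4 and 40.6 CPM in E3 microglia. Cfap97 had 69.7 CPM in E4 and 65.1 CPM in E3 ependymal cells against 60.5 CPM in E4 and 64.0 CPM in E3 microglia, levels whose intervals overlap. Cfap74, a further central apparatus gene, had 87.8 CPM in E4 and 81.2 CPM in E3 ependymal cells, and microglia followed with 23.8 CPM in E4 and 24.4 CPM in E3, above the 9.0 CPM in E4 and 7.45 CPM in E3 of choroid plexus cells. Cfap100 was next highest in astrocytes, with 10.2 CPM in E4 and 12.0 CPM in E3, while choroid plexus cells had 1.29 CPM in E4 and 2.10 CPM in E3. At the low end, Cfap73 had 10.5 CPM in E4 and 11.3 CPM in E3 ependymal cells and Cfap300, a further assembly factor, had 17.2 CPM in E4 (41 UMIs) and 25.6 CPM in E3 (70 UMIs). The ratio of Cfap300 was the lowest of all, -0.57 on the log2 scale, with an interval of -1.17 to 0.0035.

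The radial spoke genes included the most abundant of the 69 genes in ependymal cells. Rsph1, a spoke head protein, had 1152 CPM in E4 (2743 UMIs) and 1293 CPM in E3 (3534 UMIs), a log2 ratio of -0.17 (-0.24 to -0.09), and 226 CPM in E4 and 237 CPM in E3 choroid plexus cells. The head protein Rsph4a had 412 CPM in E4 and 389 CPM in E3 ependymal cells but 20.3 CPM in E4 and 21.6 CPM in E3 choroid plexus cells. Rsph9, the third head protein, had 283 CPM in E4 and 271 CPM in E3 ependymal cells and reached 187 CPM in E4 and 177 CPM in E3 choroid plexus cells. As a share of the ependymal level, choroid plexus cells thus had 4.91% of Rsph4a in E4 and 5.55% in E3, 19.7% of Rsph1 in E4 and 18.3% in E3, and 66.0% of Rsph9 in E4 and 65.0% in E3. Rsph10b had 128 CPM in E4 and 149 CPM in E3 ependymal cells, and Rsph14 had 47.0 CPM in E4 and 39.1 CPM in E3. Rsph3a and Rsph3b are close copies, so their levels, up to 20.6 CPM in E4 and 20.5 CPM in E3 for Rsph3b, are uncertain.

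The Ift genes, most of them subunits of complex B, were less uneven across classes. Ift20 had 343 CPM in E4 and 348 CPM in E3 ependymal cells, 206 CPM in E4 and 198 CPM in E3 choroid plexus cells, and 94.7 CPM in E4 and 95.9 CPM in E3 microglia. Ift43, a subunit of complex A, had 331 CPM in E4 and 341 CPM in E3 ependymal cells, followed by mural cells with 163 CPM in E4 and 144 CPM in E3. Ift74 had 293 CPM in E4 and 300.0 CPM in E3 and Ift22 had 234 CPM in E4 and 263 CPM in E3 ependymal cells. The next class was choroid plexus for both, and for Ift27 it was astrocytes. Ift27 had 211 CPM in E4 and 194 CPM in E3 ependymal cells, against 131 CPM in both E4 and E3 astrocytes. Ift81, which binds tubulin together with Ift74, had 212 CPM in E4 and 205 CPM in E3 ependymal cells. Ift57 had 161 CPM in E4 and 162 CPM in E3 ependymal cells and 93.2 CPM in E4 and 94.2 CPM in E3 choroid plexus cells. Ift88 was the 1 Ift gene at least 10 times the next class, with 198 CPM in E4 and 201 CPM in E3 ependymal cells and a ratio of 11.4.

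Across the 67 genes with at least 20 UMIs in ependymal cells, the choroid plexus level as a share of the ependymal level spanned the whole range from no UMI to 76.3% in E4 and 77.8% in E3, with a median of 9.51% in E4 and 9.42% in E3. It was under 1% in both libraries for Dnah5, Dnah12, Dnah10, Dnah3 and Cfap46. It was over 50% in both for Ift20, Ift57, Cfap36, Cfap298 and Rsph9. By family the median share was 2.39% in E4 and 3.64% in E3 for dynein chains, 8.40% in E4 and 9.17% in E3 for Cfap, 19.7% in E4 and 18.3% in E3 for Rsph, and 25.6% in E4 and 25.9% in E3 for Ift genes. The proportions of the genes were not those of ependymal cells: choroid plexus cells had 162 UMIs of Dnah6 and 1 of Dnah5 in E4 and 130 and 5 in E3, where ependymal cells had 1153 and 981 in E4 and 1494 and 953 in E3. Ependymal markers were also counted in each choroid plexus cell, without thinning, so that deeper cells could reach a given number more easily. Median depth was 11381 UMIs in E4 and 9682 UMIs in E3 choroid plexus cells. UMIs of at least 3 ependymal markers, not counting Calml4 and Rarres2, were found in 104 E4 and 76 E3 choroid plexus cells. Without these cells, the Dnah, Dnaic, Cfap and Rsph genes summed to 1588 CPM in E4 and 1539 CPM in E3 choroid plexus cells, against 1571 CPM in E4 and 1561 CPM in E3 with them. Dynein chains alone were lower without them, at 81.7 CPM in E4 and 83.1 CPM in E3, against 102 CPM in E4 and 93.0 CPM in E3 with them. The cells left out had 129 CPM of dynein chains in E4 and 113 CPM in E3. Where their dynein UMIs came from was not tested.

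The levels of the E4 and E3 libraries in ependymal cells lay close together. The log2 ratio of the sum of the 69 genes was 0.0061 (-0.016 to 0.028). By family it was 0.03 (-0.02 to 0.08) for dynein chains, 0.04 (0.01 to 0.08) for Cfap, -0.08 (-0.14 to -0.03) for Rsph and -0.04 (-0.09 to 0.01) for Ift genes. Of the Rsph sum, Rsph1 made up 2743 of 4891 UMIs in E4 and 3534 of 5937 UMIs in E3. Of the 67 genes, 37 had a ratio above 1 and 30 below, with a median log2 ratio of 0.03 and a range of -0.57 to 0.41. None of the 67 was at least 1.5-fold higher in E4, where 5.84% of all 12045 genes with at least 20 UMIs in ependymal cells were, and none was at least 1.5-fold lower, where 5.48% were. Among genes with at least 200 UMIs there, 1.5% of 4679 were at least 1.5-fold apart in either direction and none of the 60 cilia genes was. For 12 of these 60 genes, 6 higher and 6 lower in E4, the interval did not hold a ratio of 1, and the same was true of 16.7% of the 4679.

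**Figure D5:**
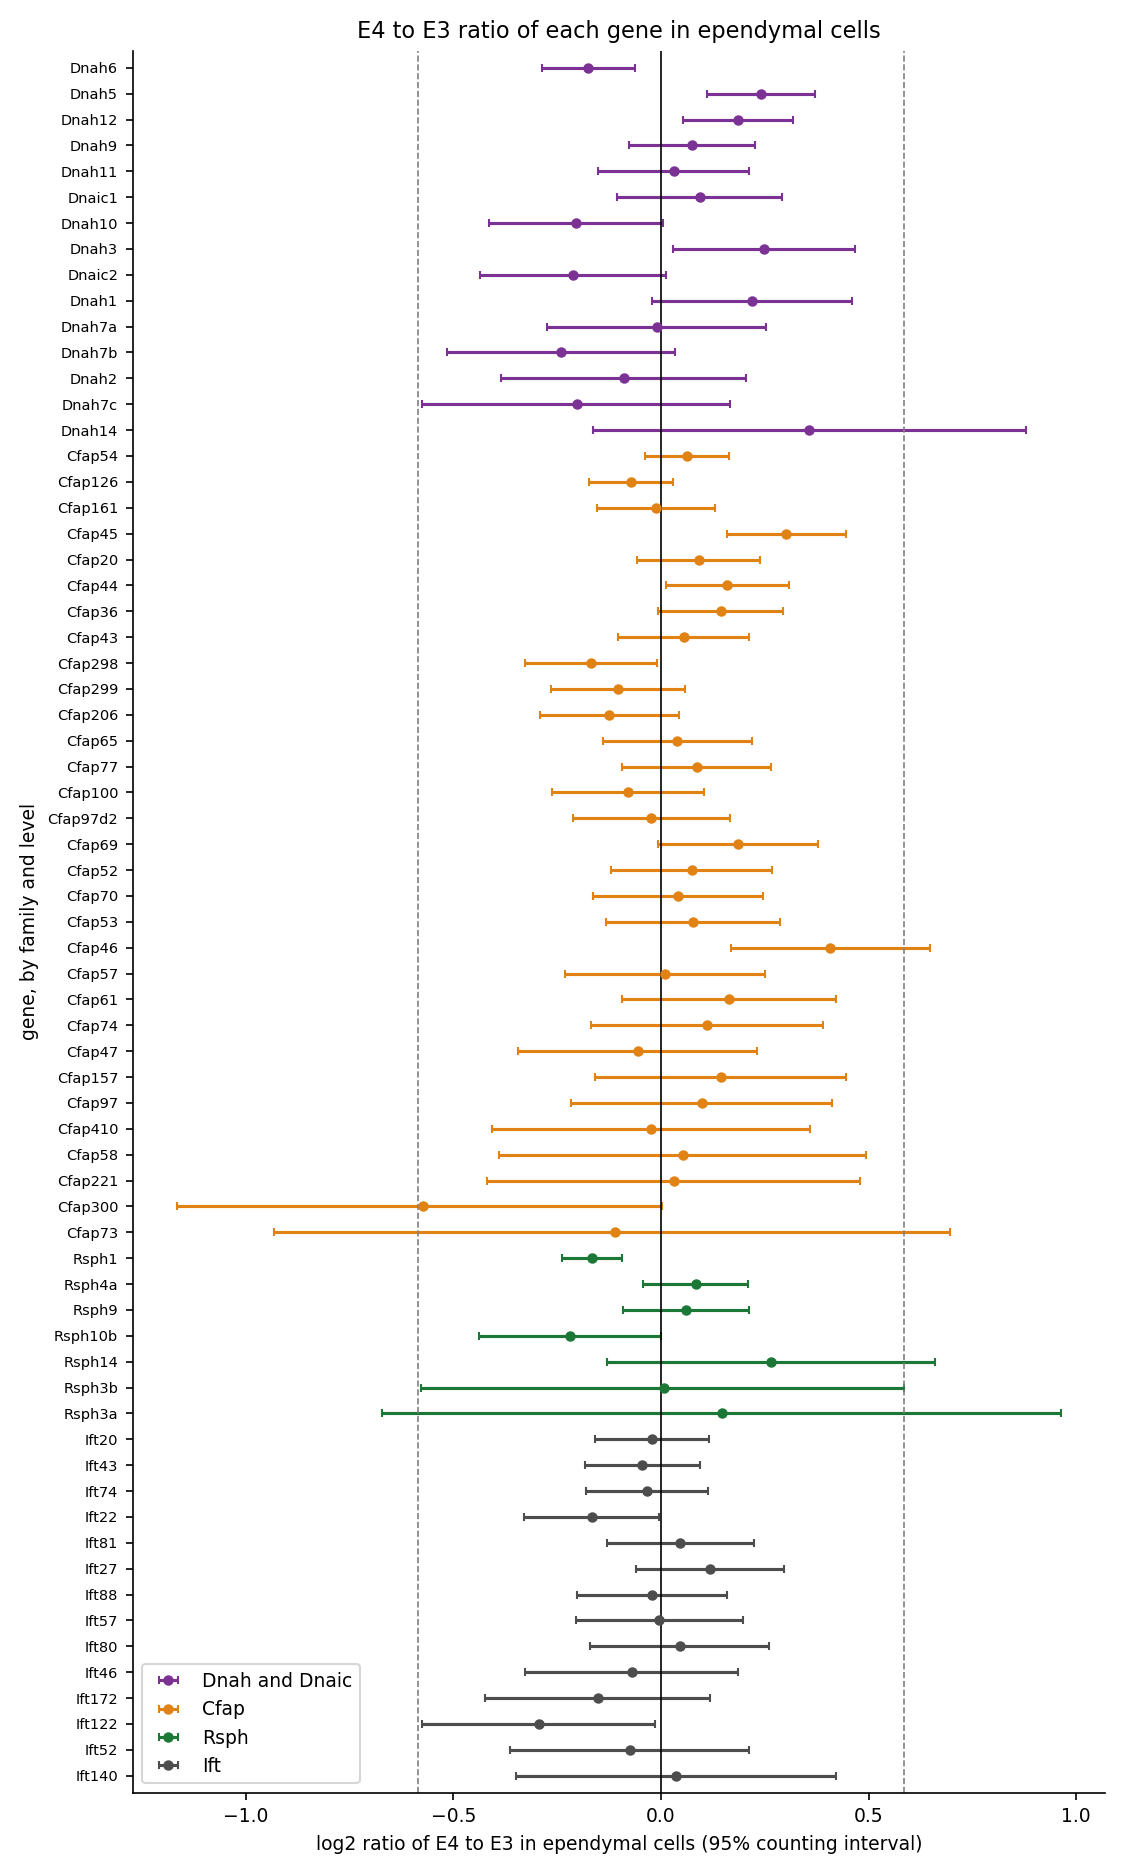
Log2 ratio of E4 to E3 in ependymal cells (x axis) for the 67 genes with at least 20 UMIs there (rows, by family and level), with 95% counting intervals; dashed lines mark a 1.5-fold difference. All points lie between the dashed lines, from -0.57 for Cfap300 to 0.41 for Cfap46.

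Other values of the ependymal cells stood further apart between the libraries. The choroid plexus marker Ttr, the transthyretin gene, had 319 CPM in E4 and 2703 CPM in E3 ependymal cells. The 7 choroid plexus markers summed to 561 CPM in E4 and 2974 CPM in E3, with 2 higher and 5 lower in E4. Without Ttr they summed to 241 CPM in E4 and 271 CPM in E3, and Kl was nearly absent with 1.26 CPM in E4 and 1.10 CPM in E3. In the choroid plexus class the 7 markers summed to 241097 CPM in E4 and 236754 CPM in E3. The median mitochondrial share was 9.16% in E4 and 7.78% in E3 ependymal cells, and 14 genes of the response to dissociation summed to 1613 CPM in E4 and 1469 CPM in E3, with 8 of 14 higher in E4. The part of these differences in the ratios was not tested. When ependymal cells were instead taken as all cells with UMIs of at least 3 markers, the log2 ratio of the 69 genes was -0.26 (-0.28 to -0.24), and Dnah5, Dnah12, Cfap45 and Cfap44 were then lower in E4. That set held 298 E4 and 270 E3 cells, including the 104 E4 and 76 E3 choroid plexus cells.

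In choroid plexus cells the sum of the 69 genes had a log2 ratio of 0.01 (-0.02 to 0.05). Of 55 genes with at least 20 UMIs there, 3 were at least 1.5-fold higher in E4 (4.81% of all 11580 genes) and 1 was at least 1.5-fold lower (5.40% of all). The 3 were Rsph3a, Cfap58 and Dnah2os, with 31, 15 and 20 UMIs in E4 and 13, 7 and 10 UMIs in E3. The 1 was Dnah2, with 11 UMIs in E4 and 15 UMIs in E3. Of the 4, only Rsph3a had an interval that did not hold a ratio of 1.

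Summed over all cells of a library, the genes were lower in E4, and such a sum alone does not tell fewer cells of a type from less RNA per cell. The 69 genes had 1301 CPM in E4 and 1507 CPM in E3, a log2 ratio of -0.21 (-0.23 to -0.20). The ratio was -0.36 for dynein chains, -0.36 for Rsph, -0.21 for Cfap and -0.12 for Ift genes. Ependymal cells were 1.38% of E4 cells (exact binomial interval 1.19 to 1.59%) and 1.67% of E3 cells (1.45 to 1.93%), and they held 36.3% of the UMIs of the genes in E4 and 44.9% in E3. For dynein chains these shares were 74.2% in E4 and 81.7% in E3, and for Ift genes 17.3% in E4 and 23.3% in E3. Ependymal cells also had fewer UMIs per cell in E4, with a median of 8764 against 10697 in E3. Without the ependymal cells, the sum was 859 CPM in E4 and 875 CPM in E3, a log2 ratio of -0.03 (-0.04 to -0.01). By family the ratio without them was 0.11 (0.02 to 0.21) for dynein chains, now higher in E4 with 35.6 CPM in E4 and 32.9 CPM in E3, -0.07 (-0.14 to -0.01) for Rsph, -0.01 (-0.04 to 0.02) for Cfap and -0.04 (-0.06 to -0.01) for Ift genes. Without choroid plexus cells as well, the sum of the 69 genes was 696 CPM in E4 and 703 CPM in E3 (-0.01, -0.04 to 0.01). Cells of other clusters with UMIs of at least 3 ependymal markers, not counting Calml4 and Rarres2, were also left out together with the ependymal class. Dynein chains then had 29.0 CPM in E4 and 29.3 CPM in E3 (-0.02, -0.12 to 0.08), and so were no longer higher in E4. The ratio was then -0.19 (-0.26 to -0.12) for Rsph genes and -0.06 (-0.08 to -0.04) for the 69 genes. Of the cells left out by markers, 104 E4 and 76 E3 cells were choroid plexus cells. Without any choroid plexus cells, the ratio was -0.09 (-0.19 to 0.02) for Rsph genes and -0.03 (-0.05 to -0.01) for the 69 genes. Within the choroid plexus cells that did not pass by markers, it was 0.02 (-0.08 to 0.12) for Rsph genes. With 1 pool per genotype, a difference between mice in the share of ependymal cells and one between dissections cannot be told apart.

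Most other genes of the cilium were highest in ependymal cells too. Over all 16376 genes with at least 50 UMIs, 17.2% were highest there. All 34 axonemal accessory and regulatory proteins were highest in ependymal cells, with a median of 9.39 times the next class. The light chain Dynlrb2 had 1009 CPM in E4 and 1139 CPM in E3 there, and the adenylate kinase Ak7 had 730 CPM in E4 and 655 CPM in E3. All 9 measured assembly factors of dynein arms were highest in ependymal cells too, among them Pih1d2 with 200 CPM in E4 and 156 CPM in E3 and Zmynd10 with 142 CPM in E4 and 137 CPM in E3. Of the 17 measured transport subunits and motors with other names, 15 were highest there. The motor Dync2h1 had 270 CPM in E4 and 254 CPM in E3, and Wdr35 of complex A had 242 CPM in E4 and 236 CPM in E3. Of 10 genes listed for the BBSome, a cargo adaptor of primary cilia as well, 8 were highest in ependymal cells. The list includes Bbs10 and Arl6, which are not subunits of the complex. It had the lowest median ratio of these lists, 1.85 times the next class. Of its genes, Bbip1, highest in neuroprogenitors, had 139 CPM in E4 and 151 CPM in E3 ependymal cells. Ttc8 had 101 CPM in E4 and 90.0 CPM in E3 ependymal cells. Of 9 measured regulators of ciliogenesis, 7 were highest in ependymal cells, led by Myb with 186 CPM in E4 and 135 CPM in E3, while Rfx4, with 123 CPM in both E4 and E3 ependymal cells, was higher in astrocytes. None of these lists held a gene at least 1.5-fold apart between E4 and E3 in ependymal cells. Over all genes with at least 20 UMIs there, 5.84% were that much higher in E4 and 5.48% lower. Among all 4679 genes with at least 200 UMIs there, 1.5% were that far apart in either direction. At least 200 UMIs were found for 33 of the 34 axonemal proteins, 8 of 9 assembly factors and 13 of 17 transport genes. The same held for 6 of the 10 genes listed for the BBSome and for 5 of 9 regulators.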

How the data were processed

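The authors counted UMIs per gene and barcode with Cell Ranger on mm10 (version 6.1.1 in the header of the E4 matrix and 6.1.2 in that of E3) and deposited raw counts; the annotation and the strand setting are not given in the sources used here. The labels gave the genotypes. The study's filter was applied (50 to 50000 UMIs, at most 30% mitochondrial). More barcodes passed it here, 13528 in E4 and 11288 in E3, than the paper reports in its final set, so the cell sets differ. After scaling to 10000 UMIs per cell and taking logs, clusters were found by the Leiden method (resolution 1; 15 neighbours; 20 principal components of 2000 variable genes) with Scanpy 1.11.5 in Python 3.11.15, and the cilia genes were kept out of this step. A name needed at least 3 markers at least 2-fold higher in the cluster with a UMI in 20% of its cells. The class with the largest share of its markers passed gave the name. A cluster was called mixed where a second class reached at least 75% of that share. It stayed unnamed where its leading genes held more markers of another class than of its own. Shallow clusters with no marker of their own class among the leading genes also stayed unnamed. The mural class held 208 E4 and 96 E3 cells. No doublet caller was used for the main values. Scrublet, run as an alternative, called 6.27% of E4 and 4.70% of E3 cells.

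Counts were summed per class and library and divided by the class total (CPM). Levels have exact Poisson intervals, shares exact binomial intervals, and ratios exact intervals from the binomial split, all of 95% and for counting error only. Ratios need at least 20 UMIs in the class. The interval procedure was tested on simulated data with counting error only. That test cannot show how the intervals fare with spread between cells, mice or libraries. Where a count was 0, 3 UMIs was taken as the limit. The members, lists and tests were chosen with earlier results of these data known.

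Genes named are the 6 with most ependymal UMIs in each of the 4 families, those not highest in ependymal cells, the 2 on each side of the limit of 50 UMIs, the 2 with most ependymal UMIs of each other list, and any at least 1.5-fold apart in ependymal cells with an interval that leaves out a ratio of 1 (none). All others were picked with their values in view. Positions of all 74 genes were found in GENCODE vM21. Promoter sequences are RefSeq's, GRCm38.p6.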

Additional observations from a re-analysis of the deposited data

Results flagged for a closer look

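A signal of the cilia genes appeared in cells that belong to none of the named classes. A cluster led by Myoc, Gfap and Thbs4, with the tanycyte markers Gpr50 and Rax among its leading genes, held 109 E4 and 164 E3 cells and stayed unnamed. Its Dnah, Dnaic, Cfap and Rsph genes summed to 1152 CPM (1075 to 1233) in E4 and 631 CPM (587 to 677) in E3. Microglia had 226 CPM in E4 and 223 CPM in E3. The cluster passed 5 of 6 astrocyte markers, and named astrocytes were closer to it, with 449 CPM in E4 and 443 CPM in E3. In this cluster, 9 E4 and 6 E3 cells had UMIs of at least 3 ependymal markers, and they held 42.1% of these UMIs in E4 and 20.7% in E3. Without those cells the level was 800 CPM in E4 and 534 CPM in E3, a log2 ratio of 0.58 (0.41 to 0.76, counting error only). The difference between the libraries was not tested.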

How the results depend on the processing

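The members highest in ependymal cells numbered 65 to 68 under all 11 alternatives. The log2 ratio of the ependymal sum moved beyond its interval to -0.019 with cilia genes among the variable genes, to -0.051 with cells thinned to 1000 UMIs and to -0.26 with ependymal cells taken by markers. Genes at least 1.5-fold apart numbered 1 (Cfap300) without called doublets and with cells taken by markers, and 6 after thinning, which leaves few UMIs per gene. The ependymal sum moved to 14026 CPM in E4 and 13930 CPM in E3 without called doublets, to 14924 CPM in E4 and 14725 CPM in E3 with mitochondrial, haemoglobin and rRNA-overlapping genes out of the totals, to 7434 CPM in E4 and 8925 CPM in E3 by markers, to 12954 CPM in E4 after thinning, and to 13146 CPM in E4 with cilia genes variable. The choroid plexus sum moved to 2651 CPM in E4 and 2641 CPM in E3 with those totals, to 2486 CPM in E4 and 2532 CPM in E3 after thinning, to 2456 CPM in E3 with the stricter cell filter and to 2456 CPM in E4 by markers. Among named genes whose interval did not hold a ratio of 1, the log2 ratio turned over after thinning for Dnah12 (-0.051), Cfap45 (-0.019), Cfap44 (-0.24) and Ift22 (0.0037), and by markers for Dnah5 (-0.14), Dnah12 (-0.18), Cfap45 (-0.043) and Cfap44 (-0.17). The cells taken by markers include choroid plexus cells; other causes were not tested. Over all 24 named genes, 229 of 264 values kept their sign, and the other changes of sign were in genes whose interval held a ratio of 1. Returning the unnamed astrocyte-marker cluster to the astrocytes, chosen after seeing the data, moved none of these results. No paired analysis was possible because each genotype has 1 library. Leaving out a library was not possible either, and with 187 E4 and 189 E3 cells the ratios of genes with few UMIs have wide intervals.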

Other observations

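The endothelial UMIs of Dnah8 in E4 were spread over many cells, with at most 2 in 1 cell. In the cluster led by Gkn3 and Bmx, genes of arterial endothelium, there were 25 UMIs in 21 of 468 E4 cells (10.6 CPM) against 1 UMI in 268 E3 cells (0.823 CPM). In the cluster led by Slc38a5 and Ctla2a there were 15 UMIs in 14 of 1047 E4 cells (2.52 CPM) against 2 UMIs in 759 E3 cells (0.482 CPM). Without called doublets the counts in the whole class were 35 UMIs in E4 and 3 UMIs in E3. Dnah8 was named by the rule for its highest class, and this comparison was made after its values were seen.

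The unnamed cluster that passed every astrocyte marker had 393 CPM of Dnah, Dnaic, Cfap and Rsph genes in E4 and 386 CPM in E3, against 449 CPM in E4 and 443 CPM in E3 named astrocytes.

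In endothelial cells the dynein chains summed to 18.0 CPM in E4 and 10.6 CPM in E3, a log2 ratio of 0.76 (0.31 to 1.23). A single E4 endothelial cell with UMIs of at least 3 ependymal markers was among them, and without it the sum was 16.4 CPM in E4 and 10.6 CPM in E3 (0.63, 0.17 to 1.10). Dnah8 made up 40 UMIs of the sum in E4 and 3 UMIs in E3.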
